A study of Mus musculus with 12 samples.

Results

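The cytosolic ribosomal protein genes are described here in smooth muscle cells cultured from the mouse aorta. They were taken as the rows of both count tables whose names follow the pattern Rpl, Rps, Rplp or Rpsa with their usual numbers, without the pseudogene names that end in -ps. The rule found 80 of the 26730 gene names shared by the tables, 49 of the large subunit (Rpl and Rplp) and 31 of the small subunit (Rps and Rpsa). Low counts removed 1 of them, Rpl3l, from every test, so 79 were tested. There were 4 groups of 3 libraries each: NR4A3KO cells at day 14, wild type (WT) cells at day 14, NR4A3KO cells at day 1 and WT cells at day 1. NR4A3 is an orphan nuclear receptor, and NR4A3KO is written KO below. The protocols give 10% serum and 10 mM beta-glycerophosphate, a phosphate donor that drives mineral deposition in culture, for all groups. The treatment label gives beta-glycerophosphate for KO and none for WT, so a difference of genotype and a difference of medium cannot be told apart. The labels give neither the deleted part of Nr4a3 nor separate animals or cultures for the replicates, so p-values reflect only how these libraries vary, perhaps for technical reasons.

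Ribosomal proteins are made in the cytoplasm, carried to the nucleolus and assembled there with ribosomal RNA into a large subunit, which forms peptide bonds, and a small subunit, which reads the mRNA. Nearly every protein is needed in a single copy per ribosome, and their mRNAs are among the most abundant of a growing cell. Most of these mRNAs begin with a C and a run of pyrimidines, the 5' terminal oligopyrimidine or TOP motif, through which the kinase complex mTORC1 sets their translation. Smooth muscle cells enlarge and divide when they leave the contractile state, which calls for more ribosomes.

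Library totals were 14369933 to 18797157 counts in KO and 13848199 to 19519654 counts in WT at day 14, and 17143281 to 20091307 counts in KO and 24929624 to 30105118 counts in WT at day 1, of which 296133 to 783508 fell on the 80 genes. Levels below are in CPM, counts set against the TMM-scaled size of a library. Nr4a3 stood at 34.3 to 60.1 CPM in KO against 217 to 256 CPM in WT at day 14. At day 1 Nr4a3 had 1.89 to 2.34 CPM in KO against 3.85 to 4.61 CPM in WT. It was lower in KO at both days, and the WT libraries of day 1 held less of it than the KO libraries of day 14. Of the smooth muscle markers, 11 in all, the summed level was 2076 to 2480 CPM in KO against 1274 to 2129 CPM in WT at day 14. Only 8 of these markers were tested at each day. In KO at day 14, 2 rose (25%) and 3 fell (37.5%), where 22.7% of all genes rose and 23.7% fell. In KO at day 1, 5 rose (62.5%) and 1 fell (12.5%), where 30.6% of all genes rose and 30.2% fell. At day 1 the markers summed to 1455 to 1630 CPM in KO against 1035 to 1079 CPM in WT, with only Myocd at 0 in a whole group (WT at day 1). Replicate 1 of WT at day 14 stood apart from the other two of its group, with a chi-square per gene of 32.5 and 46.1, against 2.78 to 17.8 for the other replicate pairs. In the fit of 12 libraries, 3.89% of all genes were higher and 5.89% lower in KO at day 1 than in WT at day 14, whereas 24.6% to 26.9% were higher and 26.1% to 27.9% lower between other groups that differ in day. The KO libraries of day 1 and the WT libraries of day 14 were thus closer than other groups that differ in day. An exchange of day or genotype labels would change what each contrast below means. Nr4a3 was lower in the libraries labelled KO within each table, and the labels were not tested further.

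The summed ribosomal protein share of a library was lowest in KO at day 14 and highest in KO at day 1, so that KO lay below WT at the later day and above it at the earlier day. The 80 genes took 2.10%, 2.06% and 2% of all counts in the KO libraries of day 14, and 2.94%, 2.83% and 2.88% in the WT libraries of day 14. At day 1 they took 3.47%, 3.36% and 3.90% in the KO libraries, and 2.61%, 2.58% and 2.64% in the WT libraries. As shares of all counts, no group overlapped another. From high to low, their order was KO at day 1, WT at day 14, WT at day 1 and KO at day 14. On the TMM-scaled totals the WT groups overlapped, at 2.74% to 2.83% at day 14 and 2.73% to 2.81% at day 1. KO lay there at 2.02% to 2.16% at day 14 and at 3.2% to 3.82% at day 1, still apart from WT. The mean shares of all counts were 2.05% ± 0.0518 in KO and 2.89% ± 0.0522 in WT at day 14 (SD, n = 3), a ratio of 0.711 and a difference of -0.833 percentage points. They were 3.57% ± 0.287 in KO and 2.61% ± 0.0314 in WT at day 1 (SD, n = 3), a ratio of 1.37 and a difference of 0.962 percentage points. Each difference had p = 0.10 in a two-sided exact permutation test, the smallest value that 3 against 3 libraries allow. The KO difference at day 14 minus that at day 1 was -1.79 percentage points, with p = 0.005 in an exact permutation test over 400 relabellings within days, the smallest they can give. Relabelling within days supposes no KO effect at either day, rather than an equal effect at both. Groups that lie fully apart in opposite directions can only give this p-value, so it adds nothing to that order. A share states a relative level: fewer cells of a type and less RNA per cell cannot be told apart in these libraries.

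**Figure D1:**
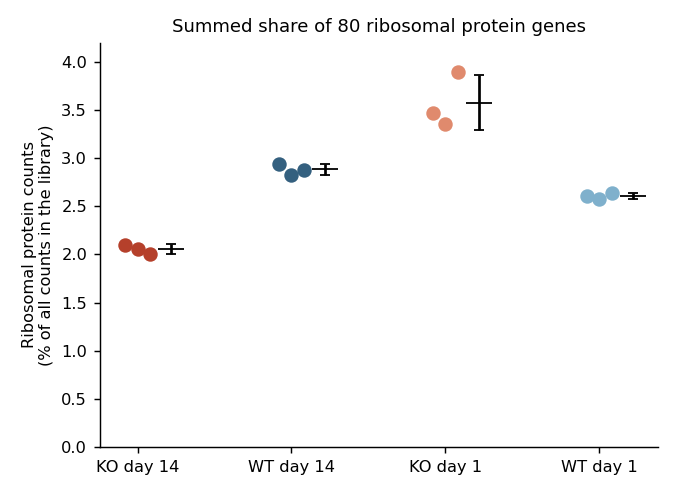
Percent of all counts in a library that fell on the 80 ribosomal protein genes (y axis), by genotype and day (x axis). Coloured points are libraries, and the black mark beside them is the mean with its SD (n = 3). KO libraries sit at 2% to 2.10% at day 14 and at 3.36% to 3.90% at day 1, and WT libraries at 2.83% to 2.94% at day 14 and at 2.58% to 2.64% at day 1.

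Both subunits followed this order. Large subunit genes took 1.14% to 1.18% of counts in KO and 1.63% to 1.76% in WT at day 14, and 1.98% to 2.28% in KO and 1.46% to 1.51% in WT at day 1. Small subunit genes took 0.86% to 0.917% in KO and 1.18% to 1.22% in WT at day 14, and 1.38% to 1.62% in KO and 1.11% to 1.14% in WT at day 1. Transcripts of the mitochondrial genome, which bear on RNA quality, ran otherwise: they took 4.41% to 4.79% in KO and 3.26% to 3.42% in WT at day 14, and 3.66% to 4.7% in KO and 4.25% to 4.5% in WT at day 1. A list of nuclear RNAs, a further sign of RNA quality, took 0.305% to 0.394% in KO and 0.255% to 0.365% in WT at day 14, which overlapped, and 0.301% to 0.391% in KO and 0.405% to 0.51% in WT at day 1, which did not. At day 1 this share was thus lower in KO, where the ribosomal protein share was higher, and its part in the result was not tested. With mitochondrial transcripts left out of the total, the ribosomal protein share was 2.15% ± 0.0557 in KO and 2.98% ± 0.0556 in WT at day 14, and 3.73% ± 0.319 in KO and 2.73% ± 0.032 in WT at day 1 (SD, n = 3).

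Gene by gene, the ribosomal protein genes were mostly lower in KO at day 14 and mostly higher in KO at day 1. At day 14, 44 of 79 fell and 2 rose in KO (adjusted p below 0.05, edgeR's quasi-likelihood test with Benjamini-Hochberg adjustment over all genes), where 23.7% of all genes tested fell and 22.7% rose. Their median log2 fold change was -0.37, against -0.00 for all genes, and 69 of 79 fold changes were negative. At day 1, 57 of 79 rose and 1 fell, where 30.6% of all genes rose and 30.2% fell. The median was 0.38, against 0.01 for all genes, and 73 of 79 fold changes were positive. Leaving out replicate 3 of KO at day 14 brought the falls at day 14 to 29, and leaving out replicate 1 of WT at day 14 brought them to 56.

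**Figure D2:**
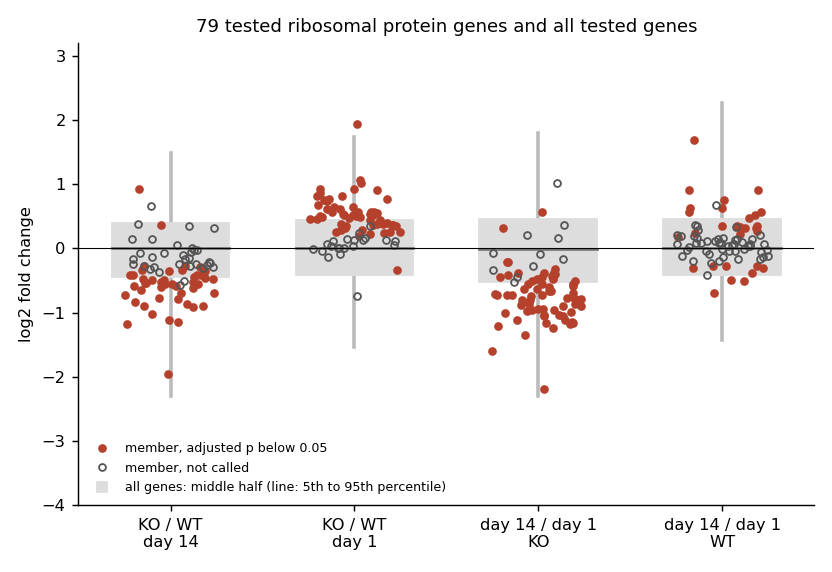
The log2 fold change of each of the 79 tested ribosomal protein genes (points, y axis) in 4 comparisons (x axis), filled where the adjusted p is below 0.05, over the distribution of all tested genes (grey). The members centre at -0.37 for KO over WT at day 14, at 0.38 for KO over WT at day 1, at -0.69 for day 14 over day 1 in KO and at 0.09 for day 14 over day 1 in WT.

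Of the 79 genes, 35 were both lower in KO at day 14 and higher in KO at day 1, a combination that 13.8% of the 14503 genes tested at both days showed. A further 21 rose at day 1 without a call at day 14, as 14.8% of all genes did, and 8 fell at day 14 without a call at day 1, as 6.88% of all genes did. Rps6, Rps27 and Rpsa, described below, were among these 8. In 12 genes neither comparison passed the threshold, as in 24.5% of all genes. Only 3 genes departed from this scheme with a call: Rpl15 rose at day 14 without a call at day 1, Rps18 rose at both days, and Rpl13a fell at both days. In simulated counts, 1.5-fold changes were recovered in 78.79% of cases at day 1 and 36.36% at day 14. A missing call at day 14 thus says less than one at day 1. The day 14 minus day 1 change of the KO effect, tested in the fit of 12 libraries, was negative for 57 genes and positive for 1, Rpl15, where 30.5% of all genes had a negative and 29.5% a positive change. Its median was -0.78 over the members and -0.01 over all genes. Group means were lowest in KO at day 14 for 59 of the 79 genes and highest in KO at day 1 for 67. These positions were not counted over all genes, so it was not tested whether they are more common among the ribosomal protein genes.

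**Figure D3:**
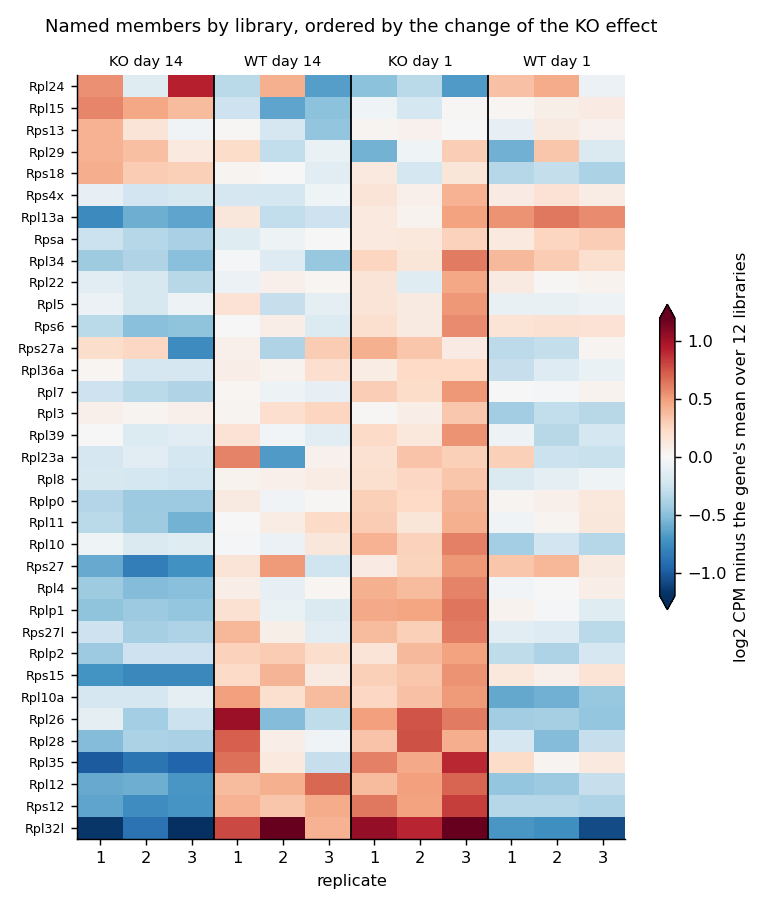
Level of the tested ribosomal protein genes named in the text (rows) in each library (columns, by group and replicate), as log2 CPM minus the gene's own mean over the 12 libraries, with rows ordered by the change of the KO effect. Most rows are red in KO at day 1 and blue in KO at day 14, Rpl15 near the top is the reverse at day 14, and Rpl32l at the bottom has the widest range.

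The TOP start was looked up to see whether members with different responses differ there. RefSeq promoters (assembly GRCm38.p6, while the counts were made on mm9) were matched for 59 of the 80 genes. A C followed by at least 4 further C or T letters stood at the annotated start of 14 of them (23.7%), and of 813 of all 27025 promoters (3.01%). The windows below hold 20 bases before the start in lower case and 10 bases from it, with the pyrimidine run in capitals. Rpl35, Rpl28 and Rplp2 are shown for genes lower in KO at day 14 and higher in KO at day 1, Rps6 and Rps27 for genes lower at day 14 alone, and Rpl15 and Rps18 for the 2 genes higher at day 14. They lie at chr2:39005122-39005151 (minus strand), chr7:4792945-4792974 (plus), chr7:141447631-141447660 (plus), chr4:86857358-86857387 (minus), chr3:90213639-90213668 (minus), chr14:18270977-18271006 (minus) and chr17:33955656-33955685 (minus), in the order of the lines.
Rpl35: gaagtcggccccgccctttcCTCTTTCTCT
Rpl28: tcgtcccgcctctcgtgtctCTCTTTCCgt
Rplp2: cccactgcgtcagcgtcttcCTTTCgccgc
Rps6: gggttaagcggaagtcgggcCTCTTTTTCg
Rps27: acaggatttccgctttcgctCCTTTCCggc
Rpl15: ggattgtgggagaaagccttCTTCCTTTCC
Rps18: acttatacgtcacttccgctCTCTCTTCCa
The run thus stood at the start of genes with several of the responses. Rpl13a, the only member lower in KO at both days, had none at its annotated start. Among the 14 genes with it, 9 fell and 2 rose in KO at day 14, with a median log2 fold change of -0.38, and 10 rose and 0 fell at day 1, with a median of 0.46. Among the 44 tested genes with no such run at the annotated start, 24 fell and 0 rose at day 14, with a median of -0.39. At day 1, 32 of these 44 rose and 1 fell, with a median of 0.36. Over all genes, 23.7% fell and 22.7% rose at day 14, and 30.6% rose and 30.2% fell at day 1. The 14 genes with the run include Rpl32l, which GENCODE M21 lists as a processed pseudogene. The string CCGGAAG, a core bound by ETS factors, was found on either strand of the 300-base promoter in 24 of 59 members (40.7%) and in 9.93% of all promoters, and CACGTG, the E-box bound by MYC, in 6 members (10.2%) and in 8.09% of all promoters. An annotated start may differ from the one used in these cells. Most of these mRNAs carry the TOP motif, yet only 23.7% of the annotated starts showed it. The split therefore cannot separate genes with the motif from genes without it, and a part of the motif in the responses was not tested.

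The stalk of the large subunit, which recruits elongation factors, is built from Rplp0 and dimers of Rplp1 and Rplp2. Rplp0 had 1680, 1592 and 1586 CPM in KO against 2321, 2088 and 2178 CPM in WT at day 14. At day 1 Rplp0 had 2613, 2535 and 2845 CPM in KO against 2202, 2245 and 2341 CPM in WT. The KO libraries lay below all WT libraries at day 14 and above them at day 1. Its log2 fold change was -0.45 ± 0.08 (SE) at day 14 (adjusted p = 0.00202, edgeR) and 0.24 ± 0.06 at day 1 (adjusted p = 0.00244), with 3 libraries a group. Rplp1 gave -0.46 ± 0.10 at day 14 and 0.57 ± 0.07 at day 1. Rplp2 had 152, 173 and 173 CPM in KO against 250, 254 and 239 CPM in WT at day 14. At day 1 Rplp2 had 230, 269 and 287 CPM in KO against 167, 159 and 179 CPM in WT. Its fold changes were -0.59 ± 0.09 and 0.65 ± 0.08 (log2), so all 3 stalk proteins passed the test in opposite directions at the 2 days. Rpl12, which sits at the base of the stalk, had 47.9, 48.3 and 44.9 CPM in KO against 94.8, 97.7 and 117 CPM in WT at day 14. At day 1 Rpl12 had 94.5, 102 and 118 CPM in KO against 52.7, 53.6 and 59.8 CPM in WT. It changed by -1.14 ± 0.11 at day 14 (adjusted p = 4.66e-05) and by 0.93 ± 0.08 at day 1 (adjusted p = 7.68e-07).

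The widest opposite change was that of Rpl32l, a Rpl32-like gene that RefSeq lists as protein coding and GENCODE M21 as a processed pseudogene. It had 1.34, 1.62 and 1.29 CPM in KO against 5.2, 7.33 and 4.01 CPM in WT at day 14. At day 1 Rpl32l had 6.22, 5.67 and 7.41 CPM in KO against 1.85, 1.8 and 1.43 CPM in WT, from 22 to 152 counts per library. Its groups of one day did not overlap, which the choice of named genes required. The log2 fold change of Rpl32l was -1.96 ± 0.30 at day 14 (adjusted p = 7.22e-04, edgeR) and 1.93 ± 0.20 at day 1 (adjusted p = 3.29e-06). Of the 50-base windows of its transcript, 64.6% occurred in no other gene, and its other windows recurred among 9 other genes. Rps12, a protein of the small subunit, came next. It had 27.7, 25.7 and 26.4 CPM in KO against 57.4, 54.2 and 58.8 CPM in WT at day 14. At day 1 Rps12 had 66.7, 60.0 and 76.7 CPM in KO against 33.9, 34.0 and 33.3 CPM in WT. The change of its KO effect was -2.10 ± 0.13 on the log2 scale (adjusted p = 2.80e-09). Every KO library lay below every WT library at day 14 and above at day 1, which the choice of named genes again required. Rpl10a, of the arm of the large subunit at which the tRNA leaves, fell by 0.54 ± 0.10 at day 14 and was higher by 0.93 ± 0.07 at day 1 in KO.

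Further large changes were those of Rps15, Rpl35, Rpl26 and Rpl28. Rps15, near the decoding site of the small subunit, had 587, 567 and 564 CPM in KO against 1136, 1286 and 1043 CPM in WT at day 14. At day 1 Rps15 had 1181, 1217 and 1406 CPM in KO against 1052, 1007 and 1082 CPM in WT. Its log2 fold change was -1.02 ± 0.10 at day 14 and 0.28 ± 0.07 at day 1 (adjusted p = 5.24e-05 and 0.00264, edgeR). Rpl35, at the exit of the peptide tunnel, had 32.7, 35.4 and 33.8 CPM in KO against 103, 70.6 and 53.8 CPM in WT at day 14. Replicate 1 was the highest of those WT libraries, and all 3 lay above KO (-1.17 ± 0.21, adjusted p = 0.00167). At day 1 Rpl35 had 99, 89.1 and 122 CPM in KO against 76.1, 66.7 and 70.5 CPM in WT, a rise of 0.55 ± 0.10 (adjusted p = 3.28e-04). Rpl26, also near the tunnel exit, had 5.35, 4.38 and 4.85 CPM in KO against 11.8, 4.05 and 4.7 CPM in WT at day 14, where the groups overlapped and the high WT value was that of replicate 1. It gave -0.51 ± 0.38 (adjusted p = 0.301) at day 14, and rose by 1.06 ± 0.14 at day 1 (adjusted p = 3.32e-05). Rpl28 followed with -0.73 ± 0.21 at day 14 (adjusted p = 0.0206) and 0.86 ± 0.14 at day 1, and its call at day 14 was lost without any 1 of the KO replicates (adjusted p = 0.0846, 0.0576 and 0.0603 without replicates 1, 2 and 3).

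**Figure D4:**
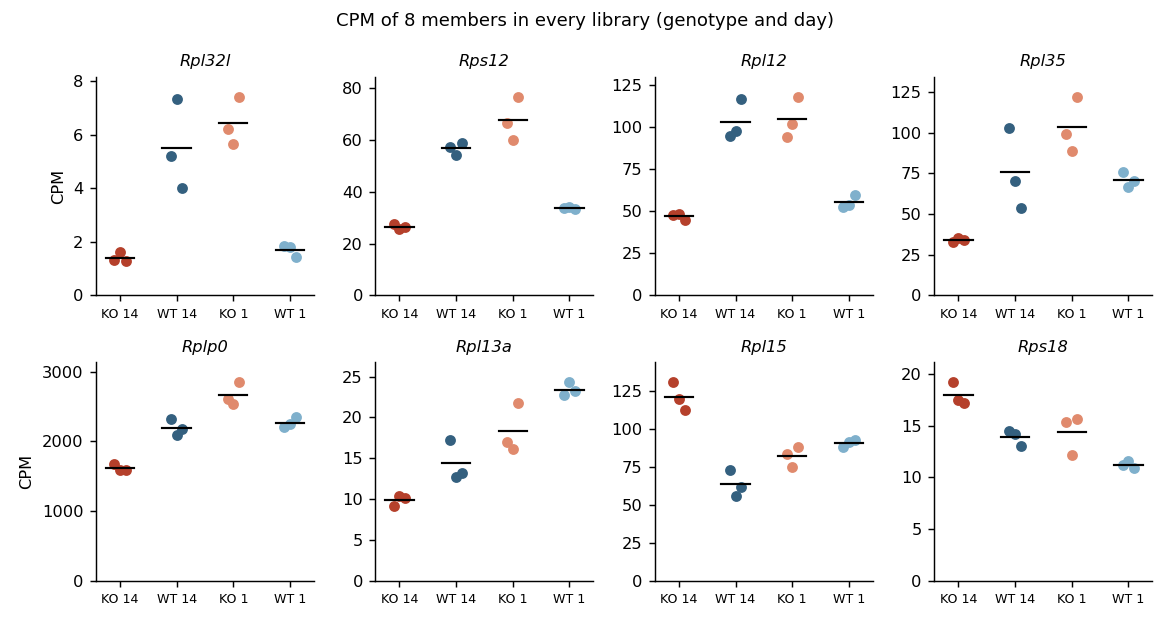
CPM (y axis, starting at 0) of 8 ribosomal protein genes in every library, with the group mean as a black line, for KO and WT at day 14 and day 1 (x axis). Rpl32l, Rps12, Rpl12, Rpl35 and Rplp0 lie below WT in KO at day 14 and above it at day 1, Rpl13a lies below WT in KO at both days, Rpl15 is higher in KO at day 14, and Rps18 is higher in KO at both days.

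Rpl15, Rps18 and Rpl13a did not follow the common scheme. Rpl15, a core protein of the large subunit, had 131, 120 and 113 CPM in KO against 73.1, 56.3 and 61.8 CPM in WT at day 14. At day 1 Rpl15 had 83.9, 75 and 88.1 CPM in KO against 88.6, 91.5 and 93.2 CPM in WT. It rose by 0.92 ± 0.11 in KO at day 14 (adjusted p = 2.58e-04, edgeR), and at day 1 its fold change was -0.14 ± 0.07 (log2, adjusted p = 0.0959, or 0.0196 without replicate 3 of KO). The change of its KO effect was 1.08 ± 0.14 (adjusted p = 7.54e-06). Rps18, in the head of the small subunit, had 19.2, 17.5 and 17.2 CPM in KO against 14.5, 14.2 and 13.0 CPM in WT at day 14. At day 1 Rps18 had 15.4, 12.2 and 15.7 CPM in KO against 11.2, 11.6 and 10.9 CPM in WT. KO was higher by 0.36 ± 0.13 at day 14 (adjusted p = 0.0433) and by 0.37 ± 0.12 at day 1 (adjusted p = 0.0175). The call at day 14 was lost in 5 of 6 fits without 1 library (adjusted p = 0.0715 to 0.14; all but the one without replicate 1 of WT), with library size alone as the scale (0.0869) and without the filter on low counts (0.117), and the call at day 1 without replicate 1 of KO (0.0669) or replicate 1 or 3 of WT (0.0555 and 0.0714). Rpl13a, which in human myeloid cells also leaves the ribosome to silence inflammatory mRNAs, had 9.19, 10.4 and 10.1 CPM in KO against 17.2, 12.7 and 13.2 CPM in WT at day 14. At day 1 Rpl13a had 17.0, 16.1 and 21.8 CPM in KO against 22.7, 24.3 and 23.2 CPM in WT. It fell by 0.55 ± 0.16 at day 14 (adjusted p = 0.021, and 0.0898, 0.0555 and 0.0651 without KO replicates 1, 2 and 3). It fell by 0.34 ± 0.11 at day 1 (adjusted p = 0.0199, but 0.0788 without replicate 1 of KO, 0.0712 without replicate 2 of WT, and 0.102 with library size alone).

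The members with the most counts were Rplp0, Rpl4, Rpl7, Rps4x and Rpl8, which together held 29.7% of the ribosomal protein counts. Rpl4, which lines the peptide tunnel, had 1373, 1292 and 1302 CPM in KO against 1946, 1729 and 1878 CPM in WT at day 14. At day 1 Rpl4 had 2478, 2402 and 2789 CPM in KO against 1810, 1843 and 1952 CPM in WT. It gave -0.50 ± 0.08 at day 14 and 0.46 ± 0.06 at day 1 (log2, adjusted p = 0.00132 and 3.58e-05, edgeR). Rpl7 gave -0.28 ± 0.08 and 0.35 ± 0.07, and Rpl8 -0.29 ± 0.08 and 0.38 ± 0.06, all past the threshold. The calls of both at day 14 were lost without replicate 3 of KO (adjusted p = 0.0829 for Rpl7 and 0.0604 for Rpl8), and that of Rpl7 also without replicate 2 of KO (0.0674). Rps4x, the X-linked small subunit gene, passed the threshold at neither day. It had 1252, 1150 and 1178 CPM in KO against 1166, 1160 and 1297 CPM in WT at day 14. At day 1 Rps4x had 1495, 1403 and 1796 CPM in KO against 1435, 1520 and 1426 CPM in WT. The groups overlapped at both days, with fold changes of -0.03 ± 0.09 and 0.11 ± 0.08 (adjusted p = 0.81 and 0.255). The value at day 1 passed the threshold without replicate 2 of KO at day 1 (adjusted p = 0.0167) and with library size alone (0.0149).

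Several members are known for tasks beside translation. Rps6, the substrate of S6 kinase downstream of mTORC1, had 43.9, 38.8 and 39.2 CPM in KO against 55.0, 57.8 and 48.8 CPM in WT at day 14. At day 1 Rps6 had 62.6, 59.0 and 80.9 CPM in KO against 61.4, 62.0 and 61.8 CPM in WT. It fell by 0.42 ± 0.11 in KO at day 14 (adjusted p = 0.0109, edgeR; 0.0533 and 0.0545 without KO replicates 2 and 3), and the groups overlapped at day 1 (0.14 ± 0.10, adjusted p = 0.239; 0.0203 without replicate 2 of KO and 0.0291 with library size alone). Rpsa, also known as the precursor of a laminin receptor, fell by 0.27 ± 0.08 at day 14 (adjusted p = 0.0251), a call lost without KO replicate 2 or 3 or WT replicate 2 or 3 (0.0704 to 0.104), and gave -0.04 ± 0.06 at day 1 (adjusted p = 0.601). Rpl5 and Rpl11 carry the 5S ribosomal RNA and, when free, bind Mdm2 and so stabilise p53. Rpl11 had 167, 155 and 141 CPM in KO against 208, 222 and 244 CPM in WT at day 14. At day 1 Rpl11 had 258, 231 and 280 CPM in KO against 203, 214 and 229 CPM in WT. It gave -0.56 ± 0.10 at day 14 (adjusted p = 0.00191) and 0.26 ± 0.07 at day 1 (adjusted p = 0.00771; 0.0586 without replicate 1 of WT). Rpl5 gave -0.06 ± 0.13 at day 14, with overlapping groups (adjusted p = 0.708), and 0.36 ± 0.10 at day 1 (adjusted p = 0.00591). Mdm2 itself stood at 169 ± 4.1 CPM in KO against 449 ± 28.9 CPM in WT at day 14. At day 1 Mdm2 had 392 ± 21.5 CPM in KO against 193 ± 2.48 CPM in WT (SD, n = 3). The protein p53, which Mdm2 degrades, activates Cdkn1a, an inhibitor of cell division. Cdkn1a had 169 ± 8.06 CPM in KO against 460 ± 36.3 CPM in WT at day 14. At day 1 Cdkn1a had 418 ± 13 CPM in KO against 262 ± 4.23 CPM in WT. Rps27a, made as a fusion with ubiquitin, had 41.4, 42.4 and 21.2 CPM in KO against 37.4, 27.8 and 44.1 CPM in WT at day 14, which overlapped, and rose by 0.48 ± 0.11 at day 1 (adjusted p = 0.00183, or 0.0773 with all 12 libraries in the fit).

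A few ribosomal proteins have a paralog that can take their place, and the balance of such pairs was read from counts. Rps27l, which p53 activates in human cells, held 94.2% to 94.5% of the counts of the pair with Rps27 in KO and 90.3% to 93.7% in WT at day 14, and 92.8% to 93.9% in KO and 89.7% to 90.4% in WT at day 1. The ranges did not overlap at either day, with the higher share in KO at both. Of the 50-base coding windows, 0% of those of Rps27 and 73.2% of those of Rps27l occurred in no other gene, and Rps27 had only 51 to 238 counts per library. Reads of Rps27 that fit several genes may be missing from its row, so the share need not give the true balance of the pair. Rps27 fell by 0.90 ± 0.23 at day 14 (adjusted p = 0.0117, edgeR; 0.0501 without replicate 2 of KO) and gave 0.04 ± 0.15 at day 1 (adjusted p = 0.842). Rps27l fell by 0.48 ± 0.13 at day 14 (adjusted p = 0.0165; 0.0651 and 0.061 without KO replicates 2 and 3) and rose by 0.65 ± 0.09 at day 1 (adjusted p = 2.44e-05). Rpl22l1 held 5.43% to 6.37% of its pair with Rpl22 in KO and 6.44% to 10.2% in WT at day 14, and 10.0% to 11.4% in KO and 5.89% to 7.13% in WT at day 1. Rpl22 passed the threshold at neither day, with -0.24 ± 0.09 at day 14 (adjusted p = 0.0564; 0.00206 without replicate 1 of WT, 0.0172 with library size alone, 0.0448 with a filter of 1 CPM in 3 libraries and 0.048 with DESeq2) and 0.13 ± 0.11 at day 1 (adjusted p = 0.316; 0.00248 without replicate 2 of KO), whereas Rpl22l1 fell by 0.75 ± 0.17 at day 14 and rose by 0.98 ± 0.14 at day 1. Rpl3l, the form of Rpl3 in striated muscle, had 0 to 6 counts per library, and Rpl3 at the peptidyl transferase centre gave -0.13 ± 0.09 at day 14 (adjusted p = 0.301; 0.023 without replicate 1 of WT) and rose by 0.50 ± 0.08 at day 1. Rpl10, which completes the large subunit, Rpl39, of the tunnel, and Rpl36a rose at day 1 by 0.77 ± 0.08, 0.52 ± 0.10 and 0.36 ± 0.08 and were not called at day 14 (adjusted p = 0.179, 0.405 and 0.0933; 0.0337 for Rpl10 and 0.0198 for Rpl36a without replicate 1 of WT, and 0.0362 for Rpl36a with library size alone). Rows of the testis paralogs Rpl10l and Rpl39l were not analysed here.

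The least abundant members passed the threshold at neither day. Rpl24 had 8 to 24 counts per library, with 0.913, 0.565 and 1.19 CPM in KO against 0.5, 0.838 and 0.396 CPM in WT at day 14. At day 1 Rpl24 had 0.444, 0.501 and 0.39 CPM in KO against 0.797, 0.849 and 0.595 CPM in WT. Its fold changes of 0.66 ± 0.45 at day 14 and -0.74 ± 0.41 at day 1 (log2) did not pass the test (adjusted p = 0.262 and 0.133, edgeR). Rpl23a gave -0.29 ± 0.34 at day 14 and 0.34 ± 0.25 at day 1 (adjusted p = 0.51 and 0.251), and Rpl29 gave 0.31 ± 0.26 and 0.03 ± 0.31 (adjusted p = 0.353 and 0.935). Rpl23a had 20 to 68 and Rpl29 25 to 76 counts per library. The change of the KO effect, not called with all libraries, passed for Rpl24 without replicate 2 of KO or of WT at day 14 (adjusted p = 0.0484 and 0.027) and for Rpl23a without replicate 2 of WT at day 14 (0.0471). Rpl34 and Rps13 also passed the threshold at neither day, with -0.25 ± 0.12 and 0.38 ± 0.21 at day 14 (adjusted p = 0.117 and 0.169; 0.0206 without replicate 3 and 0.0479 without replicate 1 of WT) and 0.07 ± 0.10 and 0.01 ± 0.15 at day 1.

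Reads of ribosomal protein genes are hard to place, because their processed pseudogenes are numerous and nearly identical to them. Of the 78 members with an annotated coding sequence, 25 had no 50-base coding window that occurs in no other gene of GENCODE M21, and 13 had at least 50% of such windows. Per kb of transcript, the level over the 12 libraries had a median of 869 CPM per kb in the 12 tested genes of mostly unique sequence (130 to 2021), and of 62.4 CPM per kb in the 25 genes with none (4.11 to 745). Across 77 members, which share the same libraries, the level and the unique share had a Spearman rho of 0.60, and the highest level was 2060 times the lowest. The sources used here do not give how the authors' counting treated reads that fit several genes. Rows of -ps pseudogenes held 20.5% to 23.8% as many counts as the members, and took 0.45% to 0.48% of all counts in KO and 0.66% to 0.685% in WT at day 14, and 0.77% to 0.883% in KO and 0.535% to 0.566% in WT at day 1, the same order of groups as the members.

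**Figure D5:**
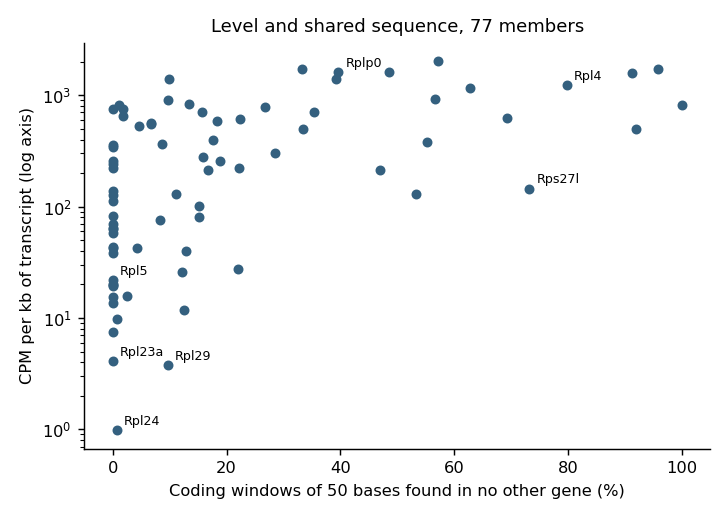
Level per kb of transcript of 77 ribosomal protein genes, averaged over 12 libraries (y axis, log scale), against the percent of their 50-base coding windows that occur in no other annotated gene (x axis). The 25 genes at 0% have a median of 62.4 CPM per kb, and the 12 genes at 50% or more a median of 869 CPM per kb.

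The KO differences were seen in genes of either kind. Of the 12 tested genes with mostly unique sequence, 11 fell and 0 rose in KO at day 14 (median -0.51), and 10 rose and 0 fell at day 1 (median 0.37). Of the 25 genes with no unique window, 11 fell and 1 rose at day 14 (median -0.32), and 18 rose and 0 fell at day 1 (median 0.39). Over all genes, 23.7% fell and 22.7% rose at day 14, and 30.6% rose and 30.2% fell at day 1. The summed share of the mostly unique genes was 0.594% ± 0.00886 in KO and 0.927% ± 0.0245 in WT at day 14, and 1.14% ± 0.0859 in KO and 0.8% ± 0.0198 in WT at day 1 (SD, n = 3).

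How far the genes moved as one body was asked by testing each against the members' sum. At day 14, 15 genes were higher and 14 lower than the sum moved, 36.7% of the 79, where 62.1% of all genes departed from it. At day 1, 27 were higher and 14 lower, 51.9% of the 79, where 60.2% of all genes departed. The members are centred on their own sum and other genes are not, so the shares over all genes are no like measure. On the TMM scale, 22.7% of all genes were higher and 23.7% lower at day 14, and 30.6% higher and 30.2% lower at day 1. The count of departing members at day 1 was 24 without replicate 2 of WT and 27 without replicate 1 or 3 of WT. Of the 5 most abundant members, Rplp0, Rpl4, Rpl7 and Rpl8 were not called against the sum at either day, with values from -0.08 to 0.14 (log2). Rps4x was called at both, with 0.40 ± 0.08 at day 14 (adjusted p = 0.00288, edgeR) and -0.23 ± 0.07 at day 1 (adjusted p = 0.00948). These 5 genes held 29.7% of the sum itself, so their closeness to it is partly built in. Against it, Rps12 stood at -0.68 ± 0.10 at day 14 and 0.68 ± 0.09 at day 1, Rpl12 at -0.72 ± 0.11 and 0.60 ± 0.09, and Rpl15 at 1.34 ± 0.11 and -0.47 ± 0.08, all past the threshold. Rps18 was higher than the sum at day 14 (0.78 ± 0.13, adjusted p = 6.17e-04, edgeR), and gave 0.04 ± 0.13 at day 1.

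Between the days, most of the genes fell in KO, whereas in WT most had no call. In KO, 66 of 79 were lower and 2 higher at day 14 than at day 1, where 27.9% of all genes were lower and 26.9% higher, with a median of -0.69. In WT, 20 were higher and 9 lower at day 14 than at day 1, where 25.8% and 26.1% of all genes were, with a median of 0.09. The WT counts were 13 higher and 5 lower without replicate 2 of WT at day 1, and 33 higher and 3 lower with library size alone as the scale, which shifts the median of all genes to 0.13. In KO, Rpl32l fell by 2.19 ± 0.26, Rpl35 by 1.60 ± 0.18 and Rps12 by 1.35 ± 0.09 between the days, while Rpl15 rose by 0.56 ± 0.10. Rps18 also rose in KO, by 0.31 ± 0.12 (adjusted p = 0.0409, edgeR), a call that was lost without replicate 2 of KO at day 1, any replicate of KO at day 14 or any replicate of WT at day 1 (adjusted p = 0.0549 to 0.183). The call was also lost with TMM computed without the members (0.0527), a filter of 1 CPM in 3 libraries (0.0514), library size alone (0.109) and no filter (0.0919). In WT, Rpl32l rose by 1.69 ± 0.24, Rpl10a by 0.90 ± 0.09, Rpl12 by 0.90 ± 0.10 and Rps12 by 0.75 ± 0.09, while Rpl13a fell by 0.70 ± 0.14, Rpl15 by 0.51 ± 0.10 and Rpl34 by 0.49 ± 0.12. Day and table, which may stand for a batch, cannot be told apart in these contrasts. Across both genotype and day, 31 members were higher and 0 lower in KO at day 1 than in WT at day 14, where 3.89% and 5.89% of all genes were. That count was 54 without replicate 1 of WT at day 14, 9 without replicate 3 and 18 without replicate 1 of KO at day 1, and 11 and 17 without replicates 2 and 3 of WT at day 14.

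Genes that build the ribosome were mostly higher in KO at day 1, while at day 14 the biogenesis factors and RNA polymerase I genes fell at about the share of all genes. Over all genes, 23.7% fell and 22.7% rose at day 14, and 30.6% rose and 30.2% fell at day 1. Of 58 factors of ribosome biogenesis, 12 fell (20.7%) and 1 rose in KO at day 14 (median -0.20), and 45 rose (77.6%) and 0 fell at day 1 (median 0.51). Fbl, the methylase of ribosomal RNA, had 36.9 ± 2.3 CPM in KO against 58.5 ± 11.4 CPM in WT at day 14. At day 1 Fbl had 56.9 ± 6.14 CPM in KO against 37.4 ± 0.538 CPM in WT (SD, n = 3), both past the threshold. Nop2, another methylase of ribosomal RNA, rose by 1.30 ± 0.11 at day 1 and gave -0.45 ± 0.21 at day 14 (adjusted p = 0.105, edgeR). Of 20 genes of RNA polymerase I and its factors, which make ribosomal RNA, 5 fell (25%) and 0 rose at day 14, and 15 rose (75%) and 0 fell at day 1. Among 11 tested hosts of small nucleolar RNAs, 6 fell (54.5%) and 0 rose at day 14, and 9 rose (81.8%) and 1 fell at day 1, with Zfas1 at 48.3 ± 3.89 CPM in KO against 127 ± 13.2 CPM in WT at day 14. Some of these counts rested on single libraries. Without replicate 1 of WT at day 14, KO at day 14 had 14 biogenesis factors higher and 17 lower than WT, and 7 genes of the polymerase I list higher and 6 lower. Without any other single library, 8 to 16 biogenesis factors were lower and 0 to 1 higher. Without replicate 2 of KO at day 1, 2 biogenesis factors and 2 hosts were lower at day 1. Between the days in WT, 43 of the 58 biogenesis factors were higher at day 14 than at day 1, where 25.8% of all genes were, and 1 was lower (median 0.46), or 3 without replicate 1 of WT at day 14.

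Ribosomal proteins whose names fall outside the rule, the mitochondrial ribosome and the translation factors were set beside the members. Of the outside names, 4 of 8 tested fell and 0 rose in KO at day 14, and 6 of 7 rose and 0 fell at day 1. Of 77 mitochondrial ribosomal protein genes, 18 fell (23.4%, near the 23.7% of all genes) and 5 rose at day 14 (median -0.18). At day 1, 44 of the 77 rose (57.1%, against 30.6% of all genes) and 5 fell (median 0.29). Mrps6, of the small mitochondrial subunit, went the other way, with 15.6 ± 1.12 CPM in KO against 7.84 ± 0.696 CPM in WT at day 14. At day 1 Mrps6 had 9.46 ± 0.47 CPM in KO against 16.2 ± 1.48 CPM in WT. Of 8 elongation factors, 4 fell (50%) and 0 rose at day 14, and 5 rose (62.5%) and 0 fell at day 1, with Eef2, which moves the ribosome along the mRNA, at 2985 ± 80.5 CPM in KO against 5168 ± 597 CPM in WT at day 14. Initiation factors were mixed, with 13 of 37 lower (35.1%) and 5 higher at day 14, and 16 higher (43.2%) and 7 lower at day 1. The 10 other mRNAs with a TOP start had medians of -0.14 at day 14 (5 fell, 0 rose) and 0.06 at day 1 (4 rose, 1 fell). Without replicate 1 of WT at day 14, 17 mitochondrial ribosomal protein genes were higher and 20 lower in KO at day 14, 9 initiation factors were higher, and 2 elongation factors and 2 other TOP mRNAs were higher. Mitochondrial ribosomal protein genes numbered 9, 7 and 6 lower without replicates 1, 2 and 3 of KO at day 14, and 2 higher without any library of day 14 but replicate 1 of WT. Over the fits without 1 library other than that replicate, 1 to 2 elongation factors and 1 to 3 other TOP mRNAs were lower. At day 1, 1 elongation factor and 3 other TOP mRNAs were lower without replicate 3 of KO, and 3 initiation factors were lower with library size alone as the scale.

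Regulators of ribosomal protein synthesis showed no common direction. Of 23 tested genes of mTORC1 and of TOP control, 5 rose (21.7%, against 22.7% of all genes) and 7 fell (30.4%, against 23.7%) in KO at day 14 (median -0.01). At day 1, 6 of them rose (26.1%, against 30.6%) and 9 fell (39.1%, against 30.2%), with a median of -0.07. The widest change was that of Rragd, a GTPase that places mTORC1 on lysosomes, with 1.07 ± 0.118 CPM in KO against 9.74 ± 0.502 CPM in WT at day 14. At day 1 Rragd had 12 ± 0.334 CPM in KO against 2.15 ± 0.564 CPM in WT (SD, n = 3). Of 11 tested genes of the MYC network, 3 rose (27.3%) and 2 fell (18.2%) at day 14, and 3 rose (27.3%) and 5 fell (45.5%) at day 1. Myc, a transcription factor that acts on ribosome genes, had 107 ± 3.88 CPM in KO against 161 ± 53.9 CPM in WT at day 14. At day 1 Myc had 188 ± 41.4 CPM in KO against 97.6 ± 6.35 CPM in WT. It changed by -0.61 ± 0.19 at day 14 (adjusted p = 0.0298, edgeR) and by 0.96 ± 0.12 at day 1 (adjusted p = 1.34e-05). Leaving out replicate 2 or 3 of KO at day 14 brought the rises among the mTORC1 genes at that day to 3, and leaving out replicate 1 of KO or 2 of WT brought the falls to 4. In the MYC network, 5 genes were lower without replicate 1 of WT and 1 without any 1 of the KO replicates, and 1 was higher without replicate 2 or 3 of KO or replicate 2 of WT at day 14.

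Markers of other cells also moved between the groups, and their part in the differences above was not tested. The summed level of 10 fibroblast markers was 672 to 763 CPM in KO against 529 to 723 CPM in WT at day 14. At day 1 it was 258 to 376 CPM in KO against 550 to 555 CPM in WT, with Lum at 0 in KO at day 14 and Dpt at 0 in KO at day 1. That of 6 mesothelial markers was 76.8 to 81.3 CPM in KO against 289 to 432 CPM in WT at day 14. The mesothelial sum at day 1 was 368 to 384 CPM in KO against 383 to 386 CPM in WT, with Upk3b at 0 in every group but WT at day 1, and Lrrn4 at 0 in both WT groups. The 6 adipocyte markers summed to 973 to 1127 CPM in KO against 369 to 614 CPM in WT at day 14, and to 362 to 447 CPM in KO against 109 to 120 CPM in WT at day 1. At day 14 that sum was mostly Lpl, which rose to 1078 CPM in KO against 456 CPM in WT, while the other 2 tested adipocyte markers, Pparg and Fabp4, fell. Endothelial markers (8 genes) stayed at 5.18 to 15.2 CPM in all libraries, with Emcn at 0 in every group. The 8 macrophage markers summed to 49.6 to 99.1 CPM and the 6 Schwann cell markers to 2.29 to 18 CPM, with Cdh19 at 0 in 4 of 4 groups among the Schwann markers. Among the macrophage markers, C1qa and C1qb were at 0 in WT at day 1 and KO at day 14. Ptprc was at 0 in WT at day 1 and Adgre1 in WT at day 14. In KO at day 1, the endothelial marker Erg and the Schwann marker Sox10 were also at 0.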

How the data were processed

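The authors deposited unnormalized read counts by gene name (1 table of 6 libraries a day), and the submitters' processing notes name the build mm9. Not given in the sources used here are the aligner, counter, annotation and strand setting. Columns carry a genotype (CTR read as WT) and a replicate number, and the day is that of the table. Of 28494 lines at day 1 and 30866 at day 14, 43 and 53 exact repeats were removed. TRIzol extraction and the NEBNext Ultra kit are stated per the labels' protocols.

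Counts were fitted with edgeR 4.0.16 (R 4.3.3) after filterByExpr and TMM scaling, by the quasi-likelihood F test. P-values were adjusted by Benjamini-Hochberg over all genes tested and called below 0.05. KO was compared with WT in a fit of each day (15368 genes at day 1, 14905 at day 14). Contrasts that involve both days came from 1 fit of 12 libraries (15974 genes), so a change of the KO effect can differ slightly from the difference of the daily values. Levels are CPM on the TMM-scaled totals of the 12 libraries. Standard errors were taken as log2 fold change divided by the root of F. Shares were compared with exact permutation tests. The scripts were tested on simulated data. Changes of 1.5-fold were recovered in 78.79% of cases at day 1, 36.36% at day 14 and 10.61% for the change of the KO effect. Changes of 2-fold were recovered in 93.85%, 80.6% and 66.67%. Of the calls, 3.83%, 7.24% and 5.93% were false. Alternatives were other scaling factors, library size alone, DESeq2 1.42.0, limma-voom (limma 3.58.1), other filters, a replicate block, other sets of libraries and leaving out each library.

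Members and gene lists were chosen with earlier results of these data known. The 36 members named are the 5 largest rises and 5 largest falls with a call per KO comparison (3 and 3 between days and against the members' sum), the 5 most and 3 least abundant, and fixed genes and pairs. For KO against WT within a day, the groups also had to lie apart in CPM. The separation of genes chosen that way thus follows from the choice. From the other lists, up to 2 called genes were named per direction. The comparisons across both genotype and day, the test of the change in share and the unique-sequence subset were added after the data were seen. Some genes are not reported here.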

Additional observations from a re-analysis of the deposited data

Results flagged for a closer look

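The KO effect on the summed share differed between the days, by -1.79 percentage points (day 14 minus day 1). The exact permutation test gave p = 0.005, the smallest it can give, and was added after the data were seen. It supposes no KO effect at either day, rather than an equal effect at both. On the log2 scale and in the same direction of subtraction, 23 of the 36 named genes had a KO effect that differed between the days. Each had an adjusted p below 0.05 in edgeR's test of the difference itself, and Rpl3l was not tested. Over all genes, 30.5% had a negative and 29.5% a positive change. Some genes were named for their call in this same test, so the count follows in part from the choice. The change was -3.87 for Rpl32l, -2.10 for Rps12, -2.05 for Rpl12, -1.70 for Rpl35, -1.58 for Rpl28 and -1.56 for Rpl26. It was -1.45 for Rpl10a, -1.29 for Rps15, -1.22 for Rplp2, -1.10 for Rps27l and -1.01 for Rplp1. Among the genes with the most counts it was -0.94 for Rpl4, -0.68 for Rplp0, -0.65 for Rpl8 and -0.61 for Rpl7. It was -0.91 for Rps27, -0.90 for Rpl10, -0.79 for Rpl11, -0.61 for Rpl3, -0.61 for Rpl39, -0.59 for Rpl36a and -0.54 for Rps6. Rpl15 alone among the named genes with a call changed upward, by 1.08.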

How the results depend on the processing

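No share difference, no median over the members and no named member's value that passed the threshold in either fit changed sign under the alternatives that were run. Among the lists, the RNA polymerase I genes in KO at day 14 numbered 7 higher and 6 lower without replicate 1 of WT, against 0 and 5 with all libraries. Beside those given above, with library size alone as the scale 0 members were lower in KO at day 1, 1 was higher in KO at day 14, and 33 were higher and 3 lower at day 14 in WT. Between the days in KO, 1 member was higher with library size alone, with TMM computed without the members, with a filter of 1 CPM in 3 libraries and without a filter, and 1 was higher in KO at day 14 without a filter. Replicates of one number showed little shared deviation (r from -0.06 to 0.08), which does not settle whether they were paired. Between the days in WT, each replicate was closest to the one of its own number (r from 0.02 to 0.06). With a replicate block, 1 member was higher and 45 lower in KO at day 14, where Rps18 lost its call (adjusted p = 0.0689, edgeR). At day 1, 58 were higher with that block. Library size alone set the median log2 fold change of all genes at 0.14 for KO over WT at day 1 and at -0.07 at day 14, and that of the members at 0.50 and -0.43, which stand 0.37 and -0.36 from it, as with TMM.

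Leaving out 1 library at a time gave 1 to 4 members higher and 29 to 56 lower in KO at day 14, and 52 to 63 higher and 0 to 3 lower at day 1. The change of the KO effect was positive for 1 to 2 and negative for 55 to 60. Between the days, 1 to 2 were higher and 60 to 68 lower in KO, and 13 to 24 higher and 5 to 11 lower in WT. Across genotype and day, 9 to 54 were higher and 0 to 0 lower in KO at day 1 than in WT at day 14, and 5 to 7 higher and 33 to 43 lower in KO at day 14 than in WT at day 1, against 5 and 37 with all libraries. Departures from the members' sum numbered 20 to 40 at day 14 and 24 to 47 at day 1. The differences in share ranged from -0.859 to -0.805 (KO minus WT at day 14), 0.799 to 1.07 (KO minus WT at day 1), -1.63 to -1.36 (day 14 minus day 1 in KO) and 0.246 to 0.298 (in WT). Over all alternatives, single named members kept their sign and their side of the threshold in 3028 cases, changed sign without passing it in 56, passed it in 49 and lost it in 81. The standard errors of Rpl24, at 8 to 24 counts per library, were 0.41 to 0.45 (log2).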
